A study of Homo sapiens with 18 samples.

Results

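The genes described here carry out and restrain the breakdown of heme: the heme oxygenases HMOX1 and HMOX2, the biliverdin reductases BLVRA and BLVRB, and the repressor BACH1. They were taken by gene symbol, which gave 5 genes with 1 named probe each among 20045 genes with a named probe, and 4 of the 5 were among the 12975 genes tested. Expression was measured on 18 Illumina HumanHT-12 v4 bead arrays in 2 human lines from neuroblastoma, named IMR-32 and SK-N-SH. Each line was kept for 24 h with the solvent DMSO, with 1 µM withaferin A (WA) or with 1 µM withanone (WN), and every one of the 6 groups held 3 replicates, which the labels call biological. The labels name no genetic change in any group, and each line is a single established culture, so replicates of a line share its genotype. IMR-32 is known for MYCN amplification and SK-N-SH for a mixed neuroblastic and substrate-adherent culture. Both compounds are withanolides, lactones on a steroid frame made by Withania somnifera, and they differ in where an epoxide and hydroxyl groups sit on the steroid rings. The series asks about ferroptosis in neuroblastoma, the form of cell death in which iron drives the peroxidation of membrane lipids.

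Heme oxygenase opens the heme ring with electrons passed on by cytochrome P450 reductase, and releases ferrous iron, carbon monoxide and biliverdin. HMOX1 is the inducible form, known as a stress gene in most tissues, whereas HMOX2 is the constitutive form that is abundant in brain and testis. Biliverdin reductase A turns biliverdin into bilirubin, and biliverdin reductase B reduces other biliverdin isomers and flavins. BACH1 binds DNA together with small MAF proteins at antioxidant response elements, keeps HMOX1 silent, and leaves the DNA when it binds heme, while NRF2 (encoded by NFE2L2) activates the same elements.

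Promoter sequences of the members were searched for such elements, except for HMOX1, for which no promoter window was available. Printed below are that of BLVRB, the member that changed beside HMOX1, and 1 of the repressor gene. RefSeq's windows on GRCh38.p14, from 250 bases before to 50 bases after each annotated start, were searched on both strands for the antioxidant response element core TGACNNNGC, for the AP-1-like core TGAGTCA and for the Maf recognition motif TGCTGAC. Of 35116 windows of the same length, 13.3% held the first, 4.95% the second and 4.19% the third. The single BLVRB window (chr19:40465696-40465995, minus strand) held none of them, nor did the BLVRA window or the 2 HMOX2 windows. Of the 3 BACH1 windows, 1 (chr21:29298672-29298971, plus strand) held TGAGTCA, printed in capitals, with its first base 48 bases before the annotated start. Capitals mark a match of letters, not a site shown to be bound, and no match means only that these letters are not in the window.
BLVRB: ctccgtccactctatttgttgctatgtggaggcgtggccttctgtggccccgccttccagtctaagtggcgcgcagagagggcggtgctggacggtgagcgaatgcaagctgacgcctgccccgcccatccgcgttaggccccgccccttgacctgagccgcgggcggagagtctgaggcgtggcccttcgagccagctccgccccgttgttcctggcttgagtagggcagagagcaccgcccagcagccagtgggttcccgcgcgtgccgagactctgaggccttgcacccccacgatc
BACH1: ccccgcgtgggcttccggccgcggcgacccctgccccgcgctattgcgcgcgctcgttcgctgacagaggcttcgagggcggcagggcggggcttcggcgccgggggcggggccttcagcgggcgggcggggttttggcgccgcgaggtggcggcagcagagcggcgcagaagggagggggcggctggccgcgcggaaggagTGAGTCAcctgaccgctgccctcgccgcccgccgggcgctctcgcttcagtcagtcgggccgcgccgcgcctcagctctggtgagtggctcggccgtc

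PHOX2A, GATA3, HAND2, ISL1, DBH and CHGA, all adrenergic neuroblast genes, were detected on all 9 arrays of both lines. TH was detected on 5 of 9 arrays in IMR-32 and on none in SK-N-SH. The summed normalized level of the 7 adrenergic markers measured was 15152 to 18188 with DMSO and 9211 to 10645 with WA in IMR-32, and 15524 to 30338 and 9514 to 15645 in SK-N-SH. Marker sums take every named probe of each gene, detected or not, so genes with more probes weigh more. Of 6 mesenchymal markers 3 were detected on all arrays of IMR-32 and 5 on all of SK-N-SH, and their sum was 11380 to 21756 with DMSO and 17751 to 27782 with WA in IMR-32, and 36865 to 49718 and 38053 to 54216 in SK-N-SH. The part of these shifts in the results below was not tested. Between 17102 and 20781 probes were detected per array (detection p under 0.01). The 6 WN arrays stood apart from the other 12: their brightest probe reached 19101 to 21480 units of intensity against 29826 to 37329. The median over probes detected on all arrays was 280 to 436 units on the WN arrays against 435 to 567 on the others. WN treatment and whatever set these arrays apart cannot be told apart. Quantile normalization gives every array the same distribution of values, so differences below are relative to the median of all genes.

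HMOX1 was detected on all 18 arrays. In IMR-32 its signals were 166, 229 and 157 units of intensity on the DMSO arrays and 8154, 7602 and 4602 on the WA arrays. In SK-N-SH they were 143, 148 and 142 with DMSO and 6140, 15039 and 7075 with WA. Every WA array thus lay far above every DMSO array of its line. WN arrays gave 127, 169 and 161 units in IMR-32 cells and 131, 160 and 141 in SK-N-SH. The first lay below the DMSO arrays of its line and the next 2 among them, while in SK-N-SH 2 WN arrays lay below and 1 above the DMSO arrays, and all 6 were far below WA. In normalized log2 intensity the group means were 6.34 ± 0.42 (SD, n = 3) with DMSO, 12.42 ± 0.53 with WA and 6.30 ± 0.31 with WN in IMR-32. In SK-N-SH they were 5.61 ± 0.07, 13.12 ± 0.69 and 5.65 ± 0.33. The order of the 6 groups therefore put both WA groups on top, IMR-32 with DMSO and WN next, and SK-N-SH with DMSO and WN last, and within each of these pairs the arrays of the groups overlapped.

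**Figure D1:**
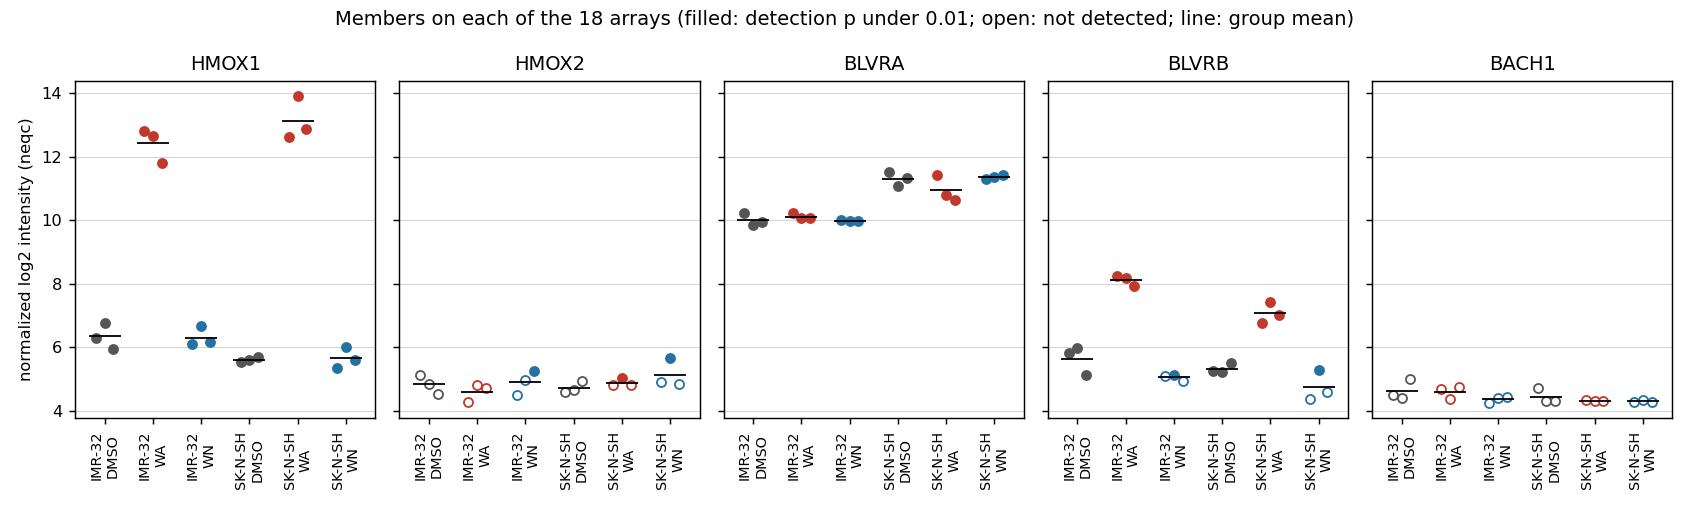
Normalized log2 intensity (vertical axis) of the 5 members on each of the 18 arrays, by line and treatment; filled points were detected, open points were not, and the lines are group means of 3 arrays. HMOX1 and BLVRB are high on all 6 WA arrays, BLVRA is higher in SK-N-SH, and most HMOX2 points and all BACH1 points are open.

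WA raised HMOX1 by 6.08 ± 0.32 (log2 difference ± SE) in IMR-32, a 67.6-fold rise with a 95% interval of 42.4 to 108 (limma adjusted p = 5.88e-09). In SK-N-SH the rise was 7.51 ± 0.32, or 183-fold with an interval of 115 to 291 (adjusted p = 4.94e-10). BLVRB, the flavin and biliverdin IX-beta reductase, rose with it, by 2.47 ± 0.24 or 5.55-fold in IMR-32 (adjusted p = 7.1e-06). Its rise in SK-N-SH was 1.75 ± 0.24 or 3.36-fold (adjusted p = 7.79e-05). Of the 4 members tested 2 were higher and 0 lower in each line, where the test called 14.5% of all genes in IMR-32 (8.04% higher, 6.47% lower) and 31.9% in SK-N-SH (16.4% higher, 15.4% lower). Ranked by size of rise among the 12975 genes, HMOX1 stood at place 1 in both lines and BLVRB at places 17 and 99. The size of both rises depends on how the background is treated, since the DMSO signals lie close to it. HMOX1 rose 28.8-fold in IMR-32 cells and 56.3-fold in SK-N-SH with no background correction, and 83.4-fold and 263-fold with an offset of 1 in place of 16. For BLVRB the same settings gave 2.40-fold and 1.63-fold, and 7.69-fold and 4.77-fold. Both genes stayed past the threshold in both lines under all 11 alternatives and without any 1 array.

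**Figure D2:**
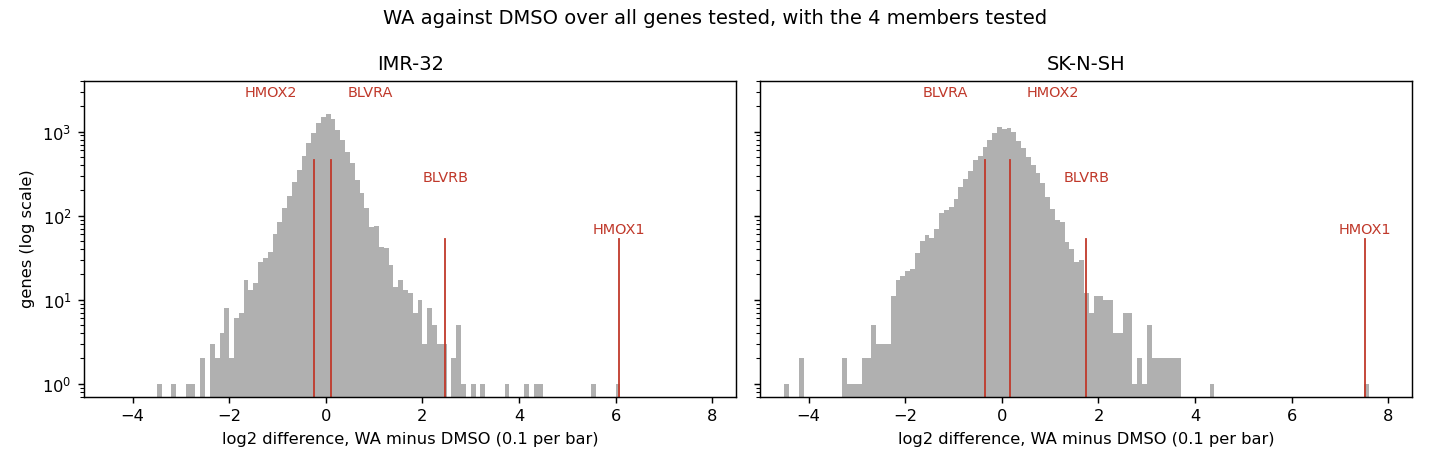
Number of genes (log axis) by log2 difference between WA and DMSO (bars of 0.1) for the 12975 genes tested in each line, with the 4 members tested marked by vertical lines. HMOX1 lies at 6.08 and 7.51, beyond all other genes, BLVRB at 2.47 and 1.75 in the right tail, and BLVRA and HMOX2 near the centre.

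BLVRB was dim without WA. Its DMSO arrays gave 146, 171 and 130 units in IMR-32 and 133, 133 and 137 in SK-N-SH, all detected. With WA the signals were 406, 410 and 398 in IMR-32 and 184, 278 and 227 in SK-N-SH, again apart from DMSO on every array. WN arrays gave 111, 123 and 126 in IMR-32 and 105, 134 and 116 in SK-N-SH, and 1 of 3 was detected in each line. The normalized means were 5.64 ± 0.46 (DMSO), 8.11 ± 0.18 (WA) and 5.05 ± 0.10 (WN) in IMR-32, and 5.32 ± 0.16, 7.07 ± 0.34 and 4.73 ± 0.47 in SK-N-SH. In IMR-32 the WN signals all lay below the DMSO signals. After normalization the overlap there was slight, with WN replicate 2 at 5.126 and DMSO replicate 3 at 5.121. In SK-N-SH 1 WN array lay among the DMSO arrays and the others below.

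BLVRA, which makes bilirubin from biliverdin, did not pass the test with either compound. In IMR-32 its signals were 1341, 1290 and 1191 with DMSO, 1385, 1296 and 1438 with WA, and 642, 875 and 1065 with WN. The WN arrays were dimmer as a whole, and after normalization the means were 10.01 ± 0.21, 10.11 ± 0.08 and 9.99 ± 0.02. In SK-N-SH the signals were 3363, 2315 and 2656 with DMSO, 2906, 2017 and 1752 with WA, and 2005, 2299 and 2387 with WN, with normalized means of 11.30 ± 0.22, 10.95 ± 0.43 and 11.36 ± 0.06. The WA difference was 0.11 ± 0.18 in IMR-32 (95% interval -0.27 to 0.48, adjusted p = 0.78) and -0.35 ± 0.18 in SK-N-SH (-0.73 to 0.03, adjusted p = 0.152). The second value rests on the arrays: without WA replicate 1 of SK-N-SH, the WA array with the highest BLVRA signal, it was -0.59 with adjusted p = 0.00541. Without WA replicate 3 it was -0.19. It passed in 1 of 6 fits without 1 array (adjusted p up to 0.499) and in 0 of 11 alternatives. WA replicate 1 also had the lowest HMOX1 and BLVRB signals of its group.

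HMOX2, the constitutive heme oxygenase, had signals of 102 to 146 units and was detected on 3 of 18 arrays, 1 each in IMR-32 with WN, SK-N-SH with WA and SK-N-SH with WN. Group means of normalized log2 intensity ran from 4.59 ± 0.29 in IMR-32 with WA to 5.14 ± 0.46 in SK-N-SH with WN, and neighbouring groups in that order overlapped. It passed the threshold in none of the comparisons, and since most of its values are not well above background no fold is given. BACH1, the repressor, had signals of 93.7 to 127 units, was detected on 0 of 18 arrays and was dropped by the filter on dim probes. The deposited detection p-values call BACH1 detected on the 6 WN arrays, where its signals were 93.7 to 114 units, no brighter than the undetected DMSO and WA arrays. With no filter its WA difference had 95% intervals of -0.35 to 0.29 in IMR-32 and -0.45 to 0.19 in SK-N-SH. Neither interval speaks of transcript level, since this probe gave no signal above background.

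With WN none of the 4 members passed the threshold, against 4.59% of all genes in IMR-32 cells and 1.83% in SK-N-SH. HMOX1 differed from DMSO by -0.04 ± 0.32 in IMR-32 (95% interval -0.71 to 0.63, adjusted p = 0.976). In SK-N-SH the difference was 0.05 ± 0.32 (-0.63 to 0.72, adjusted p = 0.969). Under the reported processing these intervals reach a 1.55-fold and a 1.64-fold rise at most. Alternatives gave HMOX1 values of -0.04 to 0.11 in IMR-32 and 0.02 to 0.22 in SK-N-SH, none past the threshold. The intervals do not measure whatever set the WN arrays apart. BLVRB was at -0.59 ± 0.24 in both lines, with intervals of -1.10 to -0.07 in IMR-32 and -1.10 to -0.08 in SK-N-SH. With 2 of 3 WN arrays of each line not above background these values are loose: alternatives gave -0.91 to -0.17 in IMR-32 cells and -1.25 to -0.16 in SK-N-SH, none past the threshold. The unadjusted p-values were 0.0272 and 0.0269, and the adjusted p-values 0.179 and 0.22. BLVRA was at -0.02 ± 0.18 in IMR-32 cells and 0.06 ± 0.18 in SK-N-SH.

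At the same dose and time the lactones differed in HMOX1 and BLVRB in both lines. WA exceeded WN by 6.11 ± 0.32 for HMOX1 in IMR-32 (69.3-fold, adjusted p = 3.27e-09) and by 7.47 ± 0.32 in SK-N-SH (177-fold, adjusted p = 5.44e-10). For BLVRB the differences were 3.06 ± 0.24 (8.34-fold, adjusted p = 6.78e-07) and 2.33 ± 0.24 (5.04-fold, adjusted p = 4.73e-06). With BLVRB detected on 1 of 3 WN arrays in each line, these folds depend on the background, and they ran from 2.70-fold with no correction to 14.4-fold with offset 1 in IMR-32, and from 1.82-fold to 11.4-fold in SK-N-SH, past the threshold each time. All 3 WA arrays were above all 3 WN arrays in each of these 4 cases. The test called 23.7% of all genes in IMR-32 (12.6% with WA above WN, 11.2% below) and 38.3% in SK-N-SH (20.7% higher, 17.7% lower). BLVRA did not pass, at 0.12 ± 0.18 in IMR-32 (-0.25 to 0.50) and -0.41 ± 0.18 in SK-N-SH (-0.79 to -0.03, adjusted p = 0.0791). The SK-N-SH value passed with the replicate block (adjusted p = 0.0495) and without WA replicate 1 (-0.66, adjusted p = 0.00233). These were 1 of 11 alternatives and 1 of 6 fits without 1 array, and without WA replicate 3 the value was -0.25. The WA and WN comparisons of a line use the same DMSO arrays.

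**Figure D3:**
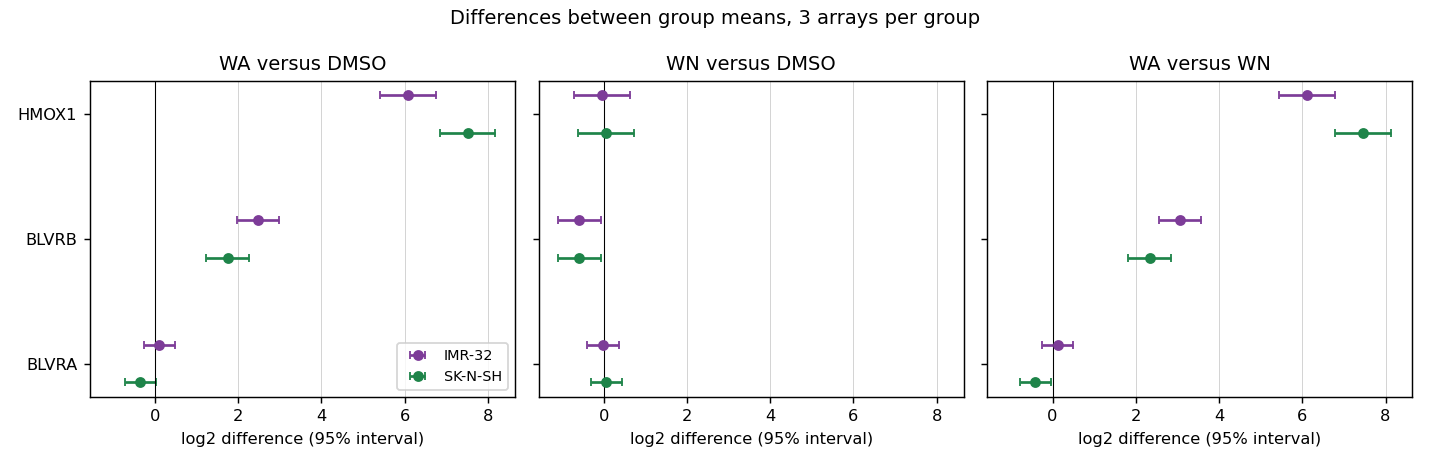
Log2 differences between group means with 95% intervals (horizontal axis) for HMOX1, BLVRB and BLVRA in IMR-32 and SK-N-SH; HMOX2 and BACH1 are left out because most or all of their arrays were not detected. HMOX1 and BLVRB lie right of 0 for WA against DMSO and for WA against WN, and the HMOX1 intervals for WN against DMSO span 0.

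Between the lines with DMSO alone, BLVRA was 2.45-fold higher in SK-N-SH (1.29 ± 0.18, adjusted p = 1.37e-05), in a comparison that called 51.5% of all genes. HMOX1 was at -0.73 ± 0.32 in the same direction of subtraction, lower on all 3 SK-N-SH arrays, and did not pass (adjusted p = 0.0644), though it did without DMSO replicate 3 of IMR-32 (-0.93, adjusted p = 0.0397) and with offset 1 (adjusted p = 0.0405). BLVRB differed by -0.32 ± 0.24.

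The estimated WA effect on HMOX1 was larger in SK-N-SH by 1.43 ± 0.45, a 2.70-fold difference between the 2 folds (95% interval 1.40 to 5.21). It did not pass the threshold (limma unadjusted p = 0.00547, adjusted p = 0.0649). In the fit with the replicate block, which pairs arrays of the same number, the same difference had an adjusted p of 0.00863. It also passed without WA replicate 1 of SK-N-SH (1.69, adjusted p = 0.0163). Normalized HMOX1 means were 5.61 in SK-N-SH and 6.34 in IMR-32 with DMSO, close to background, and 13.12 and 12.42 with WA. The HMOX1 difference passed in 1 of 10 alternatives (adjusted p up to 0.134) and in 1 of 12 fits without 1 array (up to 0.155). BLVRB went the other way, with a smaller WA effect in SK-N-SH by -0.73 ± 0.34 (unadjusted p = 0.049, adjusted p = 0.214). This difference passed on the deposited series matrix (-0.582, adjusted p = 0.0285) and with no background correction (-0.56, adjusted p = 0.0247). That is 2 of 10 alternatives (adjusted p up to 0.561), and it passed in 0 of 12 fits without 1 array (up to 0.451). The comparison called 6.66% of all genes. For the WN effect the corresponding differences were 0.08 ± 0.45 for HMOX1 and 0.00 ± 0.34 for BLVRB, and limma called 0% of all genes there, with 478 genes at an unadjusted p under 0.05.

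Of 7 heme synthesis genes tested only ALAS1, which encodes the first and rate-limiting enzyme of the pathway outside red cells, was higher with WA, by 0.83 ± 0.22 in IMR-32 (adjusted p = 0.0191) and 0.65 ± 0.22 in SK-N-SH (adjusted p = 0.0357), and 0 were lower. Its SK-N-SH signals were 143, 145 and 145 with DMSO and 131, 187 and 196 with WA, so the groups overlap, and the call was lost on the deposited series matrix (adjusted p = 0.0524), with no background correction, with the line alone, and without DMSO replicate 1 or 2 or WA replicate 2 or 3 (adjusted p up to 0.171). In IMR-32 it was lost without DMSO replicate 1 or 3 or WA replicate 2 or 3 (up to 0.0844). That is 14.3% of the list in each line, close to the 14.5% of all genes called in IMR-32 and below the 31.9% in SK-N-SH, and without 1 array the count ran from 0 to 1 higher in IMR-32, and from 0 to 2 higher and 0 to 1 lower in SK-N-SH. The median over the list was 0.03 in IMR-32 cells and 0.05 in SK-N-SH, beside 0.02 over all genes in both.

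Of 12 genes of heme transport and binding, WA raised 2 and lowered 0 in IMR-32, and raised 5 and lowered 1 in SK-N-SH. The shares called were 16.7% and 50%, beside 14.5% and 31.9% of all genes, so the IMR-32 share is near that of all genes. Without DMSO replicate 2, WA replicate 2 or WA replicate 3 of SK-N-SH 3 were higher, and without DMSO replicate 1 there 2 were lower. ABCB6, a transporter known to move porphyrins, had signals of 648, 786 and 543 with DMSO and 1485, 1838 and 2062 with WA in IMR-32. In SK-N-SH it went from 486, 396 and 441 to 1121, 840 and 860, again with no overlap. These are rises of 1.55 ± 0.18 and 1.35 ± 0.18. SLC48A1, which carries heme out of the lysosome, rose by 1.04 ± 0.20 and 1.30 ± 0.20. FLVCR2, a transporter related to the heme exporter FLVCR1, was higher in SK-N-SH by 0.78 ± 0.26 (adjusted p = 0.0298). LRP1, the receptor for the heme-hemopexin complex, was lower there by -0.88 ± 0.25 (adjusted p = 0.0124). The FLVCR2 call was lost without DMSO replicate 2, WA replicate 2 or WA replicate 3 of SK-N-SH (adjusted p up to 0.146), and the LRP1 call without DMSO replicate 3 or WA replicate 2 (up to 0.0773). The 2 others in SK-N-SH, named after their values were seen, were the mitochondrial glycine carrier SLC25A38 (0.59) and the heme-binding protein HEBP1 (0.53). The list's median was 0.09 in IMR-32 cells and 0.13 in SK-N-SH.

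Of the genes that feed electrons to heme oxygenase or dispose of bilirubin, 2 of 5 could be tested. POR, the cytochrome P450 reductase, rose by 0.66 ± 0.15 in IMR-32 cells and 0.92 ± 0.15 in SK-N-SH (adjusted p = 0.0064 and 0.000235). ABCC3, an exporter of conjugated bilirubin, rose by 1.62 ± 0.28 in SK-N-SH (adjusted p = 0.000376) and was detected on 1 of 9 arrays in IMR-32.

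The list of BACH1 partners and rivals also takes in KEAP1, which acts on NRF2, and CUL3, which was detected on at most 1 of 3 arrays in any group. The 7 tested genes of this list had 2 higher in IMR-32, KEAP1 among them, and 6 higher in SK-N-SH, and 0 lower in either. These are 28.6% and 85.7% of the list, beside 8.04% and 16.4% of all genes called higher, and without 1 array the counts ran from 1 to 2 and from 5 to 6. MAFG, a small MAF partner shared by BACH1 and NRF2, had signals of 327, 389 and 401 with DMSO and 568, 571 and 601 with WA in IMR-32. In SK-N-SH the values were 395, 410 and 387 against 749, 817 and 921. It rose by 0.75 ± 0.13 and 1.35 ± 0.13, with all WA arrays above all DMSO arrays. KEAP1, which marks NRF2 for degradation, rose by 0.53 ± 0.13 and 0.73 ± 0.13, and its IMR-32 call was lost without DMSO replicate 3 or WA replicate 1 (adjusted p up to 0.0634). MAFF rose by 1.46 ± 0.30 and NFE2L2 by 1.22 ± 0.21 in SK-N-SH, whereas in IMR-32 they were at 0.46 ± 0.30 and 0.23 ± 0.21 and did not pass. The MAFF rise was not seen with WA alone. Its SK-N-SH signals were 144, 140 and 148 with DMSO, 175, 246 and 267 with WA, and 180, 169 and 247 with WN. All WN arrays thus lay above DMSO and overlapped WA, though MAFF did not pass with WN. In IMR-32 the WN difference was 0.47 ± 0.30. The difference between lines passed for 0 of the 7, near the 6.66% of all genes that passed there. BACH2 (0.65) and NFE2L1 (0.57) also rose in SK-N-SH and are named after their values were seen.

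Genes of the antioxidant response, which BACH1 and NRF2 are known to control, had 8 of 10 tested members higher and 0 lower in each line, beside 8.04% and 16.4% of all genes called higher, with a median of 1.66 (IMR-32) and 2.42 (SK-N-SH). NQO1, a quinone reductase, had signals of 492, 676 and 382 with DMSO and 4417, 4341 and 3725 with WA in IMR-32. In SK-N-SH they were 1442, 1430 and 1441 against 6128, 7721 and 8247. Its rise was 3.26 ± 0.24 in IMR-32 cells and 2.55 ± 0.24 in SK-N-SH. SRXN1, which reactivates peroxiredoxins, rose by 1.74 ± 0.21 and 3.05 ± 0.21. ME1, an enzyme that makes NADPH, rose by 2.24 ± 0.17 and 1.58 ± 0.17, and SQSTM1, the autophagy receptor p62, by 1.94 ± 0.23 and 2.29 ± 0.23. GCLM, the modifier subunit of the first enzyme of glutathione synthesis, rose by 1.60 ± 0.25 and 3.10 ± 0.25. TXNRD1, a thioredoxin reductase, rose by 1.13 ± 0.21 and 2.69 ± 0.21. SLC7A11, the cystine carrier, was not detected with DMSO in IMR-32, and its rise there is at least 2.26-fold (adjusted p = 0.00191). In SK-N-SH, where 1 of 3 DMSO arrays detected it, it rose by 2.83 ± 0.32. The 2 tested genes that did not pass, named after their values were seen, were GCLC and SLC40A1 in IMR-32 and FTL and SLC40A1 in SK-N-SH. The difference of the WA effect between lines passed for GCLM, TXNRD1 and SRXN1, all larger in SK-N-SH. That is 3 of 10 tested, beside 6.66% of all genes.

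**Figure D4:**
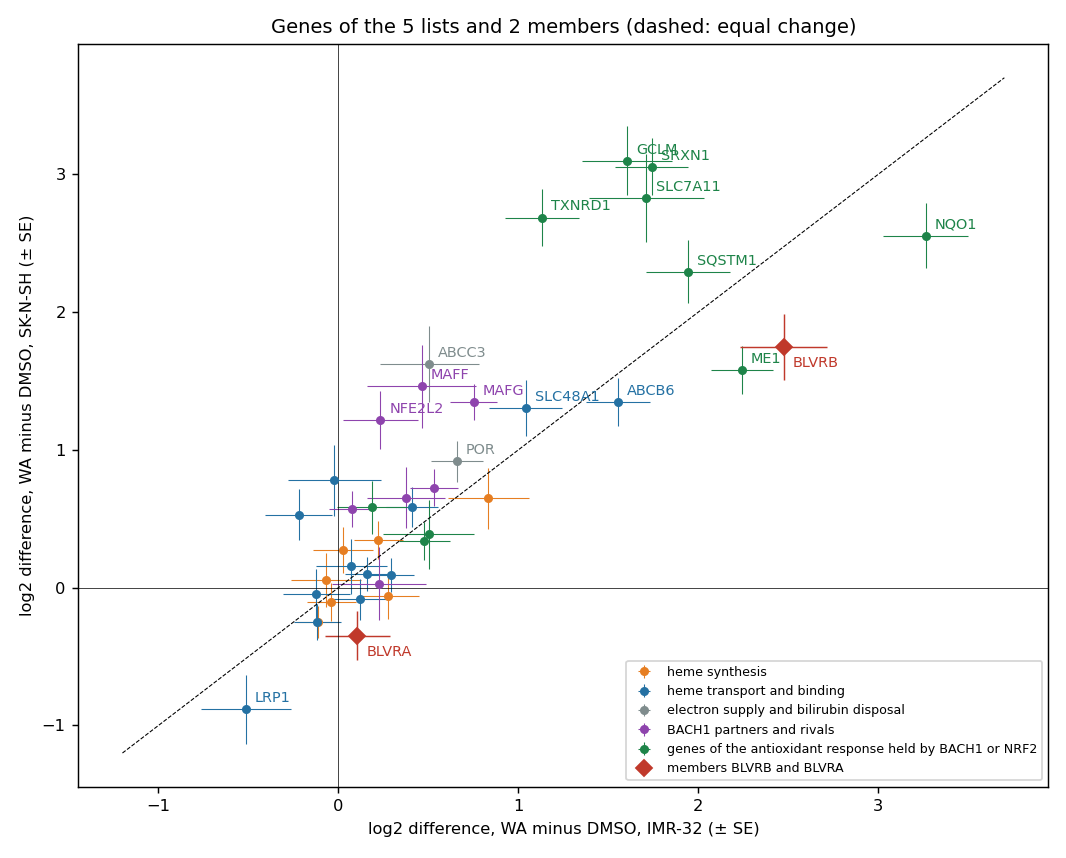
Log2 difference between WA and DMSO in IMR-32 (horizontal axis) and SK-N-SH (vertical axis), each ± SE, for the tested genes of the 5 lists (round points) and for BLVRB and BLVRA (diamonds); HMOX1, at 6.08 and 7.51, lies outside the axes. GCLM, SRXN1 and TXNRD1 stand above the dashed line of equal change, NQO1, ME1 and BLVRB below it.

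With WN 1 of the 38 tested genes of the 5 lists passed in IMR-32 cells and 0 in SK-N-SH, beside 4.59% and 1.83% of all genes. It was SLC25A38 (0.69 ± 0.15, adjusted p = 0.0166), named after its value was seen. Against WN, WA gave 9 of 10 antioxidant genes higher in each line and 3 of 7 heme synthesis genes higher in each line, with 0 lower, beside 12.6% and 20.7% of all genes called higher. ALAS1 was among these in both lines, at 0.74 in IMR-32 cells and 0.77 in SK-N-SH. Against DMSO, WA had raised only ALAS1 of the heme synthesis list. The list's median for WN relative to DMSO was -0.21 in IMR-32 cells and -0.29 in SK-N-SH, beside 0.005 and -0.02 over all genes. None of its genes passed there. The heme synthesis counts against WN thus do not measure a rise with WA alone. They also carry whatever set the WN arrays apart. For the list of BACH1 partners and rivals, 1 of 7 genes was higher with WA than with WN in IMR-32 (14.3%). In SK-N-SH 4 of 7 were higher (57.1%), and 0 were lower in either line. For heme transport and binding 2 of 12 were higher in IMR-32 (16.7%) and 3 of 12 in SK-N-SH (25%), with 1 lower in each. Both IMR-32 shares are near the 12.6% of all genes. For electron supply and bilirubin disposal 1 of 2 and 2 of 2 were higher.

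The genes whose pattern over the 18 arrays was most like that of HMOX1 were TREML3P (Pearson r = 0.982), DDIT3 (0.978), TEX19 (0.976), CDKL3 (0.976) and SQSTM1 (0.974). Values were taken relative to the DMSO mean of the same line, among 12062 other genes that were detected on every array of some group. DDIT3, the stress transcription factor CHOP, was 2.38 higher with WA in IMR-32 and 3.51 higher in SK-N-SH on the log2 scale. For BLVRB they were LRRC28 (0.977), ST3GAL3 (0.966) and PSAP (0.965), and PSAP, the precursor of lysosomal saposins, was 1.24 and 0.83 higher. For BLVRA they were TVP23A (0.934), DNAJB5 (0.923) and CCAR2 (0.903). For HMOX2, mostly undetected, the highest were GSTCD (0.779), EXOC3L1 (0.767) and KICS2 (0.766). These correlations describe arrays that share lines and treatments, and carry no test.

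Macrophages are known for HMOX1 and red cell precursors for BLVRB. CD163 and MRC1, which mark macrophages, were detected on no array, PTPRC on 1 in IMR-32 and none in SK-N-SH, and HBB on none. CD68, a lysosomal protein used as a macrophage marker, was detected on all 18 arrays, CD14 on 6 arrays of IMR-32 and 9 of SK-N-SH, and CSF1R on 0 and 3. The red cell genes HBA1 and ALAS2 were detected on 3 and 0 arrays of IMR-32 and on 0 and 1 of SK-N-SH. The summed normalized level of all probes of the 6 macrophage markers, detected or not, was 356 to 423 with DMSO and 378 to 502 with WA in IMR-32. In SK-N-SH it was 707 to 1029 with DMSO and 1983 to 2518 with WA. The sum of the 3 erythroid markers measured was 25.8 to 32.7 with DMSO and 43.2 to 145 with WA in IMR-32, and 24.4 to 34.5 and 17.9 to 43.6 in SK-N-SH. The part of these markers in the HMOX1 and BLVRB results was not tested. In bulk RNA fewer cells of a type and less RNA per cell cannot be told apart.

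**Figure D5:**
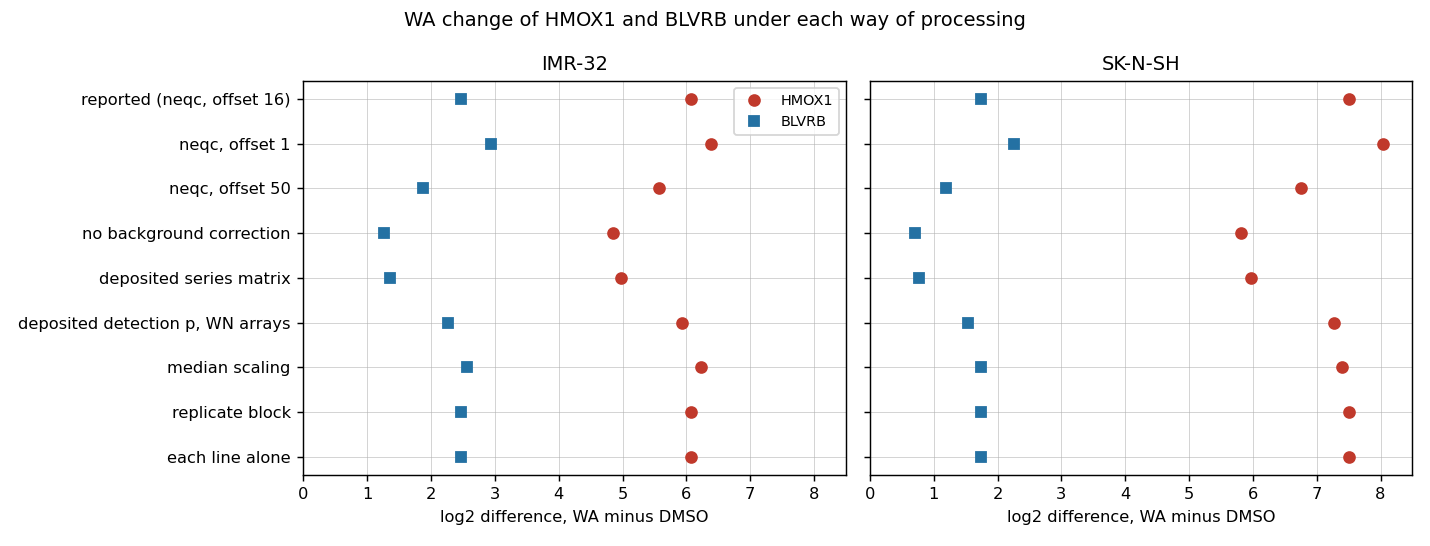
Log2 difference between WA and DMSO (horizontal axis) for HMOX1 and BLVRB in each line under the reported processing and 8 of the alternatives (rows). The treatment of background moves both genes most, from 4.85 to 6.38 for HMOX1 in IMR-32 and from 5.82 to 8.04 in SK-N-SH, and all points lie above 0.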

How the data were processed

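Total RNA of 18 cultures was measured. The deposited non-normalized table holds, per the file headers, a bead signal (intensity, linear scale) and a detection p-value for each of 47224 probes per array. The deposited series matrix holds log2 values, for which the submitters' processing notes name limma. Its scaling and centring are unknown, its median was 6.87, and its arrays correlated with their own signals at r of at least 0.995.

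With 2 incomplete probes removed, neqc (limma 3.58.1, R 4.3.3) was applied to 47222 probes (normexp from detection p-values, offset 16, quantile normalization, log2). Detection p-values of the 6 WN arrays disagreed with the signals: 66.5% to 68.0% of probes lay within 0.02 of a running median over 101 probes, against at least 99.99% on the other 12. After this was seen they were replaced, on each WN array, by that running median of its deposited p-values taken in order of signal. This changes the detection of BLVRA and BACH1 there, and it still rests on the deposited p-values. Probes with detection p under 0.01 on at least 3 arrays were kept (23320), and the brightest kept probe stood for a gene (12975 genes). The platform's annotation gave 30107 probes 1 symbol, 8 several, and left 17107 unnamed here; 30068 of 30115 were updated through Entrez identifiers. The limma fit (lmFit, eBayes, group means as coefficients, degrees of freedom 12 residual and 4.45 prior) covered all 18 arrays, with Benjamini-Hochberg adjustment over all genes and a threshold of 0.05. The number of arrays limits its precision. It was tested on simulated log2 values with independent noise, which held no shared replicate effect, no background floor and no offset of the WN arrays. That test therefore does not speak to these features. "At least" folds set the bright group's mean against, per array, the higher of the lowest detected signal and the dim probe's own.

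The members, lists and tests were chosen with earlier results of these data known. Named genes were the members, up to 4 genes per list past the threshold with the largest WA change in each line, and the 5 (HMOX1) or 3 genes most alike in pattern. PGRMC1, ABCC1, MAFK, FTH1 and OSGIN1 were not measured here, and ALAS2, ABCG2, HPX, UGT1A1 and ABCC2 were dropped by the filter. Promoter windows are RefSeq's (GRCh38.p14), with none available for HMOX1. Deviations from group means of DMSO and WA or WN arrays with the same number correlated at 0.161 or more in every pair. Each such value exceeded the highest with another number, which reached 0.317 beside 0.372 for SK-N-SH DMSO replicate 2 with WN. The numbers were therefore taken to pair these arrays, from the data alone. For WA with WN the lowest were 0.065 and 0.042, and for replicate 1 of IMR-32 another number was higher (0.099 against 0.065). The reported fit did not use the pairing of numbers, and only the replicate block did. Alternatives were the background correction, offset, normalization, filter, probe choice, replicate block, each line alone and each array left out. Plots used matplotlib 3.10.9 (Python 3.11.15).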

Additional observations from a re-analysis of the deposited data

Results flagged for a closer look

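The WA effect differed between the lines, by the interaction term of the limma fit, for 3 genes of the antioxidant response that BACH1 and NRF2 are known to control. They were 3 of 10 tested, beside 6.66% of all genes called. The effect was larger in SK-N-SH by 1.49 ± 0.35 for GCLM (log2 difference ± SE, adjusted p = 0.0191), by 1.56 ± 0.29 for TXNRD1 (adjusted p = 0.00556) and by 1.31 ± 0.29 for SRXN1 (adjusted p = 0.0134). On each of the 3 genes WA replicate 1 of SK-N-SH had the lowest signal of its group, and without that array the differences were 1.88, 1.86 and 1.63. GCLM missed the threshold without DMSO replicate 2 of IMR-32 (1.37, adjusted p = 0.0529).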

How the results depend on the processing

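Of 371 values of the 4 tested members under alternative settings, 359 kept sign and call, 6 gained a call, 6 changed sign and 0 lost a call; of 264 values without 1 array, 238 kept both, 5 gained a call, 21 changed sign and 0 lost a call. No value that changed sign passed the threshold. Of 491 values of named list genes 472 kept both and 19 lost the call. Median scaling moved the median of all genes by 0.13 for WN against DMSO and by -0.17 for WA against WN in IMR-32. Under it HMOX1 with WN in IMR-32 was 0.11, BLVRA with WN in SK-N-SH -0.011, and HMOX2 for WA against WN in IMR-32 -0.82 (adjusted p = 0.012). The line difference of the WN effect on BLVRB was 0.051 with deposited detection p-values, 0.0113 on the series matrix, 0.0123 with no background correction and 0.054 with offset 50. An offset of 1, added after seeing the data, gave HMOX1 -0.96 between the DMSO lines (adjusted p = 0.0405). With the replicate block the line difference of the WA effect on HMOX1 stayed 1.43 (adjusted p = 0.00863) and BLVRA for WA against WN in SK-N-SH stayed -0.41 (adjusted p = 0.0495); it changed no other member's call, and no paired fit was made between the DMSO lines, whose numbers belong to separate lines. Without 1 array, values ran from -0.23 to 0.18 for HMOX1 with WN in IMR-32 and from -0.14 to 0.19 in SK-N-SH. HMOX1 between the DMSO lines ran from -0.93 to -0.51, its WA line difference from 1.04 to 1.69 and its WN line difference from -0.14 to 0.28. HMOX2 ran from -0.10 to 0.28 (WN, IMR-32), -0.41 to 0.0101 (WA against WN, SK-N-SH) and -0.26 to 0.036 (DMSO lines). BLVRA ran from -0.10 to 0.10 and -0.055 to 0.17 with WN and from -0.036 to 0.19 in the WN line difference, where BLVRB ran from -0.27 to 0.26. BLVRA's WA line difference passed only without SK-N-SH WA replicate 1 (-0.70, adjusted p = 0.0252), and without WA replicate 3 there it was -0.29.

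Counts of genes past the threshold moved more. For WN against DMSO in IMR-32 they were 916 on the series matrix, 934 with no background correction, 987 with the replicate block and 1117 with the line alone, beside 595 as reported. In SK-N-SH they were 422, 440, 495 and 0, and 363 with offset 50 and 137 with offset 1, beside 238. For WA in SK-N-SH the line alone gave 2695, and for the WA line difference the replicate block gave 1751. Without 1 array the counts ran from 1123 to 1591 (WA, IMR-32), 125 to 518 and 1 to 152 (WN, IMR-32 and SK-N-SH), 2006 to 2661 (WA against WN, IMR-32), 519 to 2236 (WA line difference, highest without SK-N-SH WA replicate 1) and 0 to 2 (WN line difference). The cause of these shifts was not tested. HMOX2, BACH1 and, with WN, BLVRB lie at or near background, which limits what their probes can show.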
